A study of Mus musculus with 16 samples.

Results

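The transcripts described here are encoded by the mitochondrial genome of HL-1 cells, an established cardiomyocyte line from mouse atrium, and were measured in RNA immunoprecipitates on Affymetrix arrays. A row of the deposited table was taken when its symbol was, or held in a comma list, ND1, ND2, ND3, ND4L, ND5, ND6, COX1, COX2, COX3 or CYTB in capitals. All 10 genes were found, in 13 of the table's 35556 rows. They are 10 of 22914 distinct symbols in the table. RefSeq places all of them on chromosome MT; coordinates are left out because the table names no build for its rows.

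Cells had been transfected with siAirn-001.1, an siRNA against the long non-coding RNA Airn, or with a scrambled siRNA, each at 10 nM, and are called siAirn and siScramble cells below. From each, RNA was recovered with an antibody to Igf2bp2, an RNA-binding protein of the cytoplasm, or with control IgG. This gave 4 groups with 4 biological replicates each, 16 arrays in all: siAirn with anti-Igf2bp2, siAirn with IgG, siScramble with anti-Igf2bp2, and siScramble with IgG. All cells were 1 line, grown in Claycomb medium with fetal bovine serum and norepinephrine, and the labels name 1 siRNA against Airn.

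Mitochondrial DNA carries the genes for a small number of hydrophobic subunits of the respiratory chain, together with the ribosomal and transfer RNAs that translate them inside the organelle. It is transcribed from both strands into long precursors that are cut at the transfer RNAs between the messages. Most messages come from the precursor of the heavy-strand genes, whereas ND6 is the only protein-coding gene read from the opposite strand. Heart muscle is rich in mitochondria, and these messages are abundant there. They lie in the mitochondrial matrix, while Igf2bp2 is known as a protein that binds mRNAs in the cytosol.

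Each value below is a difference, anti-Igf2bp2 minus IgG within 1 siRNA, as given in the authors' deposited table. Its scale is not stated there and was taken as log2 from the range of the values, and the fold values rest on that reading. A negative value means that the row was lower in the Igf2bp2 precipitate than in the IgG precipitate. Array-level values are not used here; hence no per-replicate values, spread or signal level can be shown, and the cell type could not be checked against the level of its markers. Less RNA in the Igf2bp2 precipitate and more RNA in the IgG precipitate cannot be told apart in such a difference. Standard errors (SE) and 95% intervals were recovered from each deposited difference and its p. A row is called when its adjusted p (Benjamini-Hochberg over all rows) is under 0.05. The precision is limited by the number of arrays.

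ND6, the light-strand gene, was far lower in the Igf2bp2 precipitates than in the IgG precipitates with either siRNA, whereas the heavy-strand genes stayed close to 0. ND6 encodes a subunit in the membrane arm of NADH dehydrogenase, complex I of the chain. In the authors' deposited table ND6 stood at -2.60 in siAirn cells (adjusted p = 0.00352), 6.05-fold lower with anti-Igf2bp2 than with IgG, and its recovered SE was 0.34 (95% interval -3.32 to -1.88). In siScramble cells the authors' deposited table gave ND6 -2.59 (adjusted p = 0.00165), 6.04-fold lower, with an interval of -3.31 to -1.88. The estimates with the 2 siRNAs thus lay far inside each other's intervals. Each row has 1 recovered SE, which serves both comparisons, so its equality is no finding. For ND6 it was recovered from the adjusted p, because the printed p had too few digits. Counted from the lowest value, ND6 held place 22 of all 35556 rows in siAirn cells and place 27 in siScramble cells in the authors' deposited table. Of the rows lower than ND6, 19 in siAirn cells and 26 in siScramble cells had no symbol. Among the 22430 rows with 1 symbol it held place 3 from the lowest in siAirn cells and place 1 in siScramble cells. Only 0.0647% of all rows had a difference at least as large as that of ND6 in either direction in siAirn cells, and 0.11% in siScramble cells. ND6 has 1 row in the table and its gene adjoins ND5 on the other strand. The sources used here do not give the strand that the probes read.

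**Figure D1:**
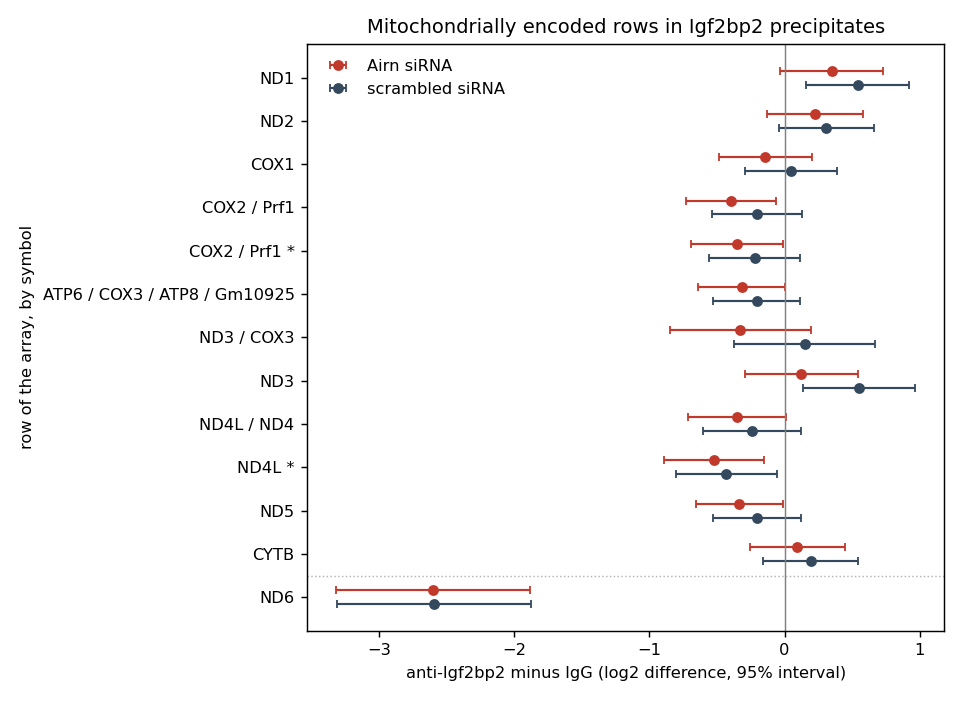
Log2 difference, anti-Igf2bp2 minus IgG, for each of the 13 rows, with recovered 95% intervals, for the Airn siRNA (red, upper) and the scrambled siRNA (dark, lower). Heavy-strand genes run in the order of the mitochondrial genome, an asterisk marks the 2 rows whose identifiers lie among those of chromosome 1 genes, and ND6, under the dotted line, stands at -2.60 and -2.59 while the other rows lie between -0.52 and 0.55.

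The 9 heavy-strand genes were covered by 12 rows, 7 with 1 symbol and 5 with several. In siAirn cells the authors' deposited table gave these rows values between -0.52 and 0.35, with a median of -0.32, against -0.06 over all rows. In siScramble cells they ranged from -0.43 to 0.55 in the authors' deposited table; their median was -0.08, against -0.10 over all rows. These rows were measured with small recovered errors, the SE being 0.15 to 0.25 against a median of 0.25 over all rows. In size, 38.5% of all rows exceeded every heavy-strand row in siAirn cells, and 52.5% did so in siScramble cells.

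Calls among the 13 rows were few. In siAirn cells 1 row was called in the authors' deposited table, ND6, and no heavy-strand row, where 1.05% of all rows were called and 0.425% were called lower. The same table had 5 of the 13 rows at an unadjusted p under 0.05, 4 of them heavy-strand rows, against 32.9% of all rows. In siScramble cells the authors' deposited table called 3 rows, ND1 and ND3 as higher and ND6 as lower, where 37.3% of all rows were called, 20.4% higher and 16.8% lower. An unadjusted p under 0.05 was held by 4 of the 13 rows, against 51.9% of all rows. The calls thus took in 2 of 12 heavy-strand rows.

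Besides ND6, complex I takes from the mitochondrial genome further core subunits of its proton-pumping membrane arm. ND1, which sits next to the ubiquinone-binding site, stood at 0.35 in siAirn cells (adjusted p = 0.176) and at 0.54 in siScramble cells (adjusted p = 0.0314) in the authors' deposited table, with an SE of 0.18. ND1 was thus called as higher in the Igf2bp2 precipitate in siScramble cells only; the difference between the siRNAs, tested below, was not called. ND2, one of the antiporter-like subunits, stood at 0.23 in siAirn cells (adjusted p = 0.320) and 0.31 in siScramble cells (adjusted p = 0.138) in the authors' deposited table. Its intervals included 0 with both siRNAs. ND5, a further antiporter-like subunit and the heavy-strand gene next to ND6, stood at -0.33 in siAirn cells (adjusted p = 0.143) and -0.20 in siScramble cells (adjusted p = 0.272) in the authors' deposited table. ND5 was not called with either siRNA.

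ND3 and ND4L, small membrane subunits of complex I, each had a pair of rows. The row with the symbol ND3 alone stood at 0.12 in siAirn cells (adjusted p = 0.637) and 0.55 in siScramble cells (adjusted p = 0.0397) in the authors' deposited table, with an SE of 0.20. A row shared by ND3 and COX3 stood at -0.33 in siAirn cells and 0.15 in siScramble cells in the authors' deposited table, neither called, and had the largest SE of the heavy-strand rows, 0.25. The row with the symbol ND4L alone was the lowest heavy-strand row with both siRNAs, at -0.52 in siAirn cells (adjusted p = 0.0876) and -0.43 in siScramble cells (adjusted p = 0.0615) in the authors' deposited table. It was not called with either siRNA. The other ND4L row, shared with ND4, stood at -0.35 in siAirn cells and -0.24 in siScramble cells in the authors' deposited table, with adjusted p of 0.158 and 0.248.

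CYTB encodes cytochrome b, the one subunit of complex III that comes from the mitochondrial genome. In the authors' deposited table it stood at 0.10 in siAirn cells (adjusted p = 0.668) and 0.19 in siScramble cells (adjusted p = 0.338), with an SE of 0.17, so neither value was called. CYTB is read from the heavy strand, and only the gene of a transfer RNA lies between it and ND6 in the RefSeq annotation. ND6 minus CYTB was -2.69 in siAirn cells and -2.79 in siScramble cells.

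COX1, COX2 and COX3 encode the core of cytochrome c oxidase, complex IV: COX1 holds the site where oxygen is reduced and COX2 receives electrons from cytochrome c. COX1 stood at -0.14 in siAirn cells (adjusted p = 0.509) and 0.05 in siScramble cells (adjusted p = 0.804) in the authors' deposited table. Both COX2 rows also carry the symbol Prf1. One stood at -0.39 in siAirn cells (adjusted p = 0.112) and -0.21 in siScramble cells (adjusted p = 0.284) in the authors' deposited table. The other stood at -0.35 in siAirn cells (adjusted p = 0.141) and -0.22 in siScramble cells (adjusted p = 0.257) in the authors' deposited table. COX3 had no row of its own: beside the row shared with ND3, it had one shared with ATP6, ATP8 and Gm10925, at -0.32 in siAirn cells (adjusted p = 0.155) and -0.21 in siScramble cells (adjusted p = 0.264) in the authors' deposited table. No row of complex IV was called with either siRNA.

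The heavy-strand rows formed a closely spaced order. In siAirn cells it ran from ND1, ND2, ND3 and CYTB above 0 through COX1 to the rows of COX3, ND5, ND4L and COX2 below 0. In siScramble cells ND3 and ND1 stood first, and the ND4L row stood last among the heavy-strand rows in both. No 2 neighbouring heavy-strand rows in either order differed beyond their intervals, the widest gap between neighbouring heavy-strand rows being 0.24 in siAirn cells and 0.26 in siScramble cells. Rows share arrays and the correlation of their errors is unknown, so the interval of a difference between rows was taken at its widest, with the SEs of both rows added. On that basis 3 of 66 pairs of heavy-strand rows had an interval above 0 in siAirn cells and 13 of 66 in siScramble cells, without adjustment over pairs. All of these pairs set ND1, ND2 or ND3 against a row of COX2, COX3, ND4L or ND5. The gap of ND1 to the ND4L row, for instance, was 0.87 (0.12 to 1.62) in siAirn cells and 0.97 (0.22 to 1.73) in siScramble cells.

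Light-strand ND6 was set against each heavy-strand row in the same way. ND6 was lower than all 12 rows with both siRNAs, and each of the widest 95% intervals lay below 0. In siAirn cells the difference ranged from -2.08 against the ND4L row (-3.17 to -0.98) to -2.95 against ND1 (-4.05 to -1.85). In siScramble cells it ranged from -2.16 against the same ND4L row (-3.25 to -1.07) to -3.15 against ND3 (-4.28 to -2.01). Against its heavy-strand neighbour ND5, ND6 was lower by a log2 difference of -2.26 in siAirn cells (-3.31 to -1.22) and -2.39 in siScramble cells (-3.43 to -1.35). Relative to the median of the heavy-strand rows, ND6 stood at -2.28 in siAirn cells and -2.52 in siScramble cells, 4.85-fold and 5.73-fold lower. The intervals of the difference from single rows were chosen after the data were seen.

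**Figure D2:**
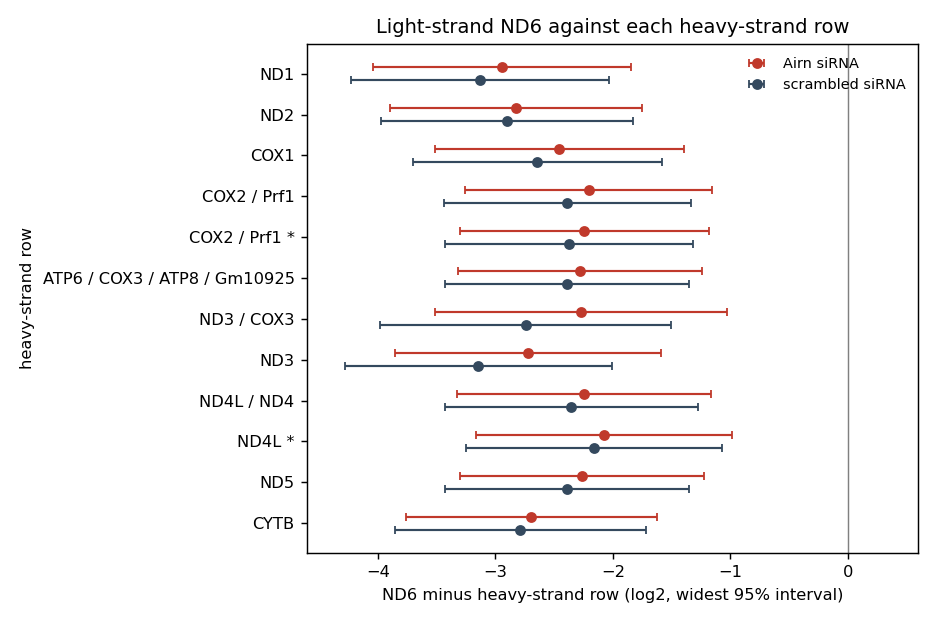
ND6 minus each heavy-strand row, as a difference of log2 values, for the Airn siRNA (red, upper) and the scrambled siRNA (dark, lower). Bars are 95% intervals with the widest SE that any correlation between rows allows, and all of them lie below 0, the nearest bound being -0.98 for the ND4L row marked with an asterisk.

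**Figure D3:**
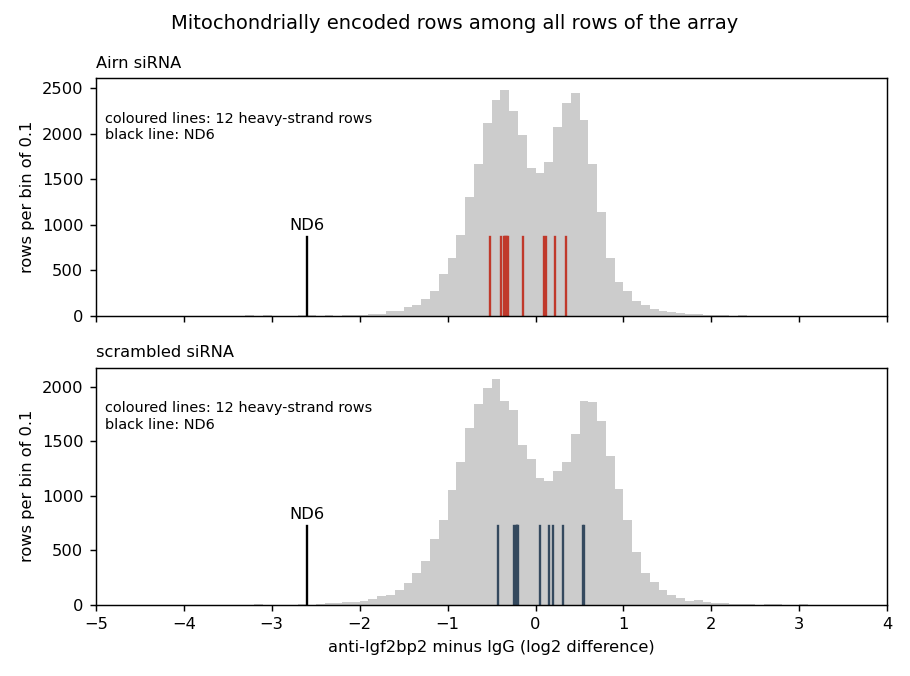
Number of rows of the array (vertical axis) by log2 difference, anti-Igf2bp2 minus IgG (bins of 0.1), in siAirn cells above and in siScramble cells below. Coloured lines mark the 12 heavy-strand rows, which lie within the bulk of the distribution, and the black line marks ND6 at -2.60 and -2.59, in the far lower tail; line height carries no value.

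Some genes had rows in a second place of the table. The rows of ND4L alone and of COX2 with Prf1 that are marked by an asterisk in the plot of the rows have identifiers apart from the other 11. Of the 20 nearest rows with 1 known symbol, 18 belong to genes of chromosome 1 in the RefSeq annotation. A further row of that place, shared by ATP6, ATP8 and Gm10925, holds a symbol that RefSeq gives to a chromosome 1 pseudogene with mt-Atp6 among its synonyms. That row was no member and stood at -0.62 in siAirn cells (adjusted p = 0.0516) and -0.60 in siScramble cells (adjusted p = 0.0128) in the authors' deposited table. Whether such rows read nuclear copies or mitochondrial RNA was not tested. The COX2 rows of both places differed by -0.04 in siAirn cells and 0.02 in siScramble cells. The ND4L rows differed by 0.17 (-0.57 to 0.90) in siAirn cells and 0.19 (-0.54 to 0.93) in siScramble cells, which is within their intervals. Without the rows of the second place, the medians of the heavy-strand rows changed the distance of ND6 by less than the SE of ND6.

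The mean of both siRNAs has a smaller error and asked which rows differed between the antibodies when all arrays are used. ND6 stood at -2.60 ± 0.24 (SE, adjusted p = 3.28e-05). ND1 at 0.44 and ND3 at 0.34 were called as higher in the mean. Both COX2 rows, both ND4L rows, ND5 and the row of ATP6, COX3 and ATP8 were called as lower, at values from -0.48 for the ND4L row to -0.26. In all, 9 of 13 rows were called in the mean, 2 higher and 7 lower, against 58.2% of all rows, 29.2% higher and 29.0% lower. With an assumed correlation of 0.3 between the errors of the comparisons 3 rows passed: ND1, the row of ND4L alone and ND6. With each comparison centred on its median 5 rows passed, among them ND1, ND3, the row of ND4L alone and ND6. Under that centring, both COX2 rows, ND5, the ND4L row shared with ND4 and the row of ATP6, COX3 and ATP8 were not called.

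siAirn cells were compared with siScramble cells by the difference of the differences. None of the 13 rows was called (0 of 35556 rows, 0.0%, in the test from the recovered errors). None of the 13 had an unadjusted p under 0.05, against 3.43% of all rows. The value for ND6 was -0.004 ± 0.48 (SE), with an interval of -1.02 to 1.01, so changes of either sign within that interval remain compatible with the data. The row shared by ND3 and COX3 had the lowest value, -0.48 (-1.21 to 0.26), followed by the ND3 row at -0.43 (-1.02 to 0.16). The other 10 heavy-strand rows lay between -0.19 and -0.09, each with an interval that included 0.

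All 12 heavy-strand rows, and ND6 at -0.004, had lower values in siAirn cells than in siScramble cells. Of all rows, 50.6% had a value below 0 in this difference. The rows share arrays, and several share sequence or a precursor, so their common sign is a description and was not tested. The median over the heavy-strand rows was -0.13, against -0.01 over all rows. Transcripts for nuclear-encoded subunits of the same complexes had medians further below 0, as given next.

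**Figure D4:**
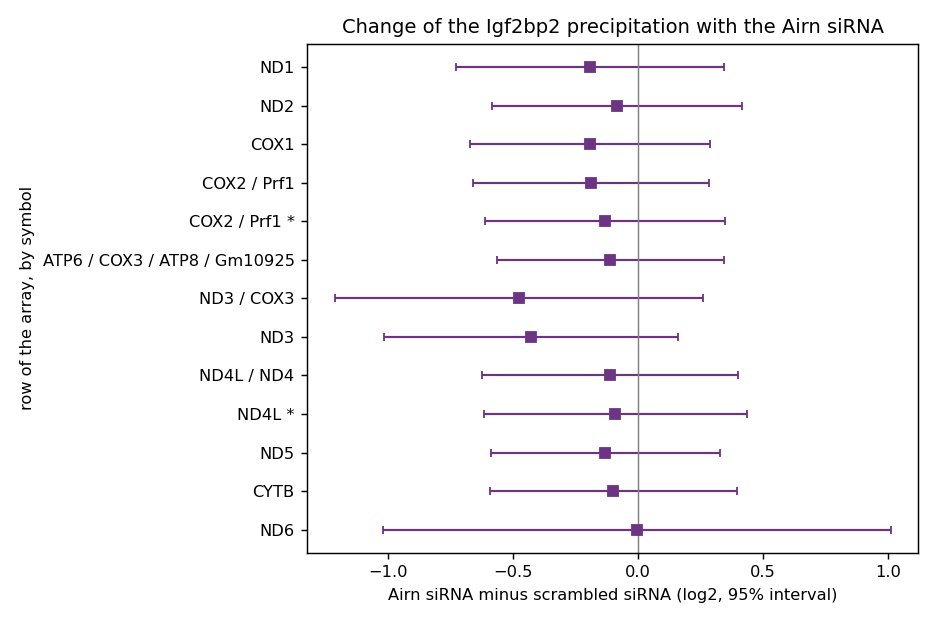
Airn siRNA minus scrambled siRNA, as a difference of log2 differences, for each of the 13 rows with recovered 95% intervals. All points lie at or left of 0, from -0.48 for the row of ND3 and COX3 to 0.00 for ND6, and every interval includes 0.

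The respiratory complexes are assembled from mitochondrially and nuclear-encoded subunits, and the nuclear ones are translated on cytosolic or mitochondrial-surface ribosomes. For complex I, the authors' deposited table called 0 of 35 measured nuclear subunits in siAirn cells (median 0.40) and 20 of 35, all higher, in siScramble cells (median 0.67). Over all rows, 0.63% were called higher in siAirn cells and 20.4% in siScramble cells. At an unadjusted p under 0.05 the authors' deposited table had 6 of the 35 higher in siAirn cells, against 17.0% of all rows, which is near the background, and 24 in siScramble cells, against 26.9%. Its largest values were those of Ndufs5 (1.04) and Ndufb3 (0.93) in siAirn cells, neither called, and Ndufs4 (1.38) and Ndufa9 (1.19) in siScramble cells, both called, in the authors' deposited table. The mitochondrially encoded rows of complex I had medians of -0.33 in siAirn cells and -0.03 in siScramble cells in the authors' deposited table, over 8 rows with ND6 among them. The row shared by ND3 and COX3 was counted here and also in complex IV below. Without that row and ND6, the medians over 6 rows were -0.105 in siAirn cells and 0.053 in siScramble cells. All 35 nuclear subunits stood above the median of the heavy-strand rows in siAirn and in siScramble cells, by the authors' deposited table. Of these, 19 in siAirn cells and 24 in siScramble cells stood above the highest heavy-strand row.

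For complex III, 0 of 7 measured nuclear subunits were called in siAirn cells (median 0.06, 0 at an unadjusted p under 0.05) and 3 in siScramble cells (median 0.58, where 20.4% of all rows were called higher) in the authors' deposited table. The called ones were Uqcrc1 (0.70), a core protein, Uqcr11 (0.58) and Uqcr10 (0.56), all higher in the authors' deposited table. At an unadjusted p under 0.05 all 7 were higher in siScramble cells, against 26.9% of all rows. The largest values in siAirn cells in the authors' deposited table, not called, were those of Uqcrh (0.32) and Uqcrc1 (0.26), and Uqcrfs1, the iron-sulphur subunit, led in siScramble cells at 0.73 without a call (adjusted p = 0.0626). For complex IV, the authors' deposited table called 0 of 13 in siAirn cells (median 0.22, 2 higher at an unadjusted p under 0.05, against 17.0% of all rows) and 7 of 13, all higher, in siScramble cells (median 0.69, against 20.4% of all rows called higher). At an unadjusted p under 0.05, 9 of the 13 were higher in siScramble cells, against 26.9% of all rows. Cox6c (0.56) and Cox5b (0.54) had the largest values in siAirn cells, not called, and Ndufa4 (0.97) and Cox5a (0.88), both called, in siScramble cells in the authors' deposited table. The mitochondrially encoded rows of complex IV had medians of -0.33 in siAirn cells and -0.21 in siScramble cells in the authors' deposited table, and no call.

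The last list held nuclear genes that transcribe, cut, stabilise or degrade mitochondrial RNA. In siAirn cells the authors' deposited table called 2 of 27 measured members, Fastkd2 (0.93, adjusted p = 0.0414) and Fastkd1 (0.90, adjusted p = 0.0262), both higher, where 0.63% of all rows were called higher; proteins of this family bind mitochondrial RNAs. These 2 were named after their values were seen. In siScramble cells the authors' deposited table called 18 of 27, all higher, against 20.4% of all rows called higher. At an unadjusted p under 0.05, 12 of the 27 were higher in siAirn cells, against 17.0% of all rows. The same count was 19 in siScramble cells, against 26.9%. The median of the list was 0.42 in siAirn cells and 0.67 in siScramble cells. The transcription factors of the organelle Tfb2m (1.27, adjusted p = 0.00963) and Tfam (0.99, adjusted p = 0.0475) were among the called ones in siScramble cells in the authors' deposited table. Hsd17b10, a subunit of the enzyme that cuts mitochondrial precursors at the start of transfer RNAs, stood at 1.03 in siScramble cells (adjusted p = 0.0254) in the authors' deposited table. In siAirn cells, Ptcd2 (1.19, adjusted p = 0.0638) and Tfam (1.00, adjusted p = 0.0996) had the largest values of the list in the authors' deposited table and were not called.

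In the difference between the siRNAs no member of these 4 lists was called (0.0% of all rows). An unadjusted p under 0.05, on the lower side, was held by 1 member of complex I, 1 of complex III, 0 of complex IV and 2 of the RNA handling list, against 1.51% of all rows; with counts of 0 to 2, nothing is read from these. The medians were -0.33 for complex I, -0.44 for complex III, -0.41 for complex IV and -0.07 for the genes of mitochondrial RNA handling. The median of -0.13 over heavy-strand rows was nearer to 0 than those of the 3 complexes. No test of this order was made.

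**Figure D5:**
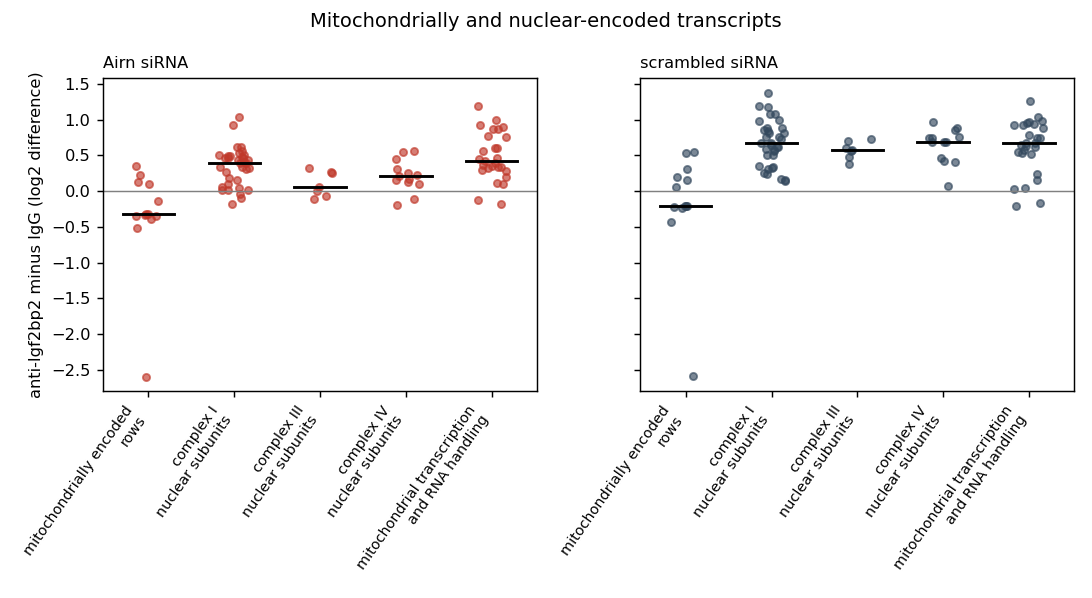
Log2 difference between anti-Igf2bp2 and IgG (vertical axis) for the 13 mitochondrially encoded rows and for the genes of 4 nuclear-encoded lists, in siAirn cells on the left and the scrambled siRNA on the right. Each point is a row and each black line a median: -0.33 and -0.20 for the mitochondrially encoded rows, against 0.40 and 0.67 for nuclear subunits of complex I; the isolated low point is ND6.

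The rows most like ND6 were sought among the 22422 other rows with 1 symbol by the distance over both deposited differences. None of these lay within 0.2 of ND6. The nearest of them was the vault RNA Vaultrc5 at a distance of 0.50, with -2.67 in siAirn cells and -2.10 in siScramble cells in the authors' deposited table. It was followed by the Y RNA Rny1 (distance 0.92), Gm10785 (0.95), LOC100038422 (0.96) and AY036118 (1.14). Outside this search, 5 rows without a symbol lay nearer to ND6 than Vaultrc5. The nearest, 10338042, lay at a distance of 0.025, with -2.614 in siAirn cells and -2.613 in siScramble cells. Rows 10339815 (0.10), 10338003 (0.11) and 10338029 (0.14) followed. The sources used here do not say what these rows measure. The last of the 5, 10598085, has the identifier directly before that of ND6 and lay at a distance of 0.34. Around the heavy-strand rows, 1040 rows with 1 symbol lay within 0.2 of the median of the heavy-strand rows, the nearest being Plcb2, Gm9953, Gm10309, Pdss1 and Gm16496, at distances of up to 0.01. Over only 2 values per row, this likeness is a description.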

How the data were processed

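RNA precipitated from HL-1 cells was hybridised to Affymetrix arrays as biotinylated cRNA, per the labels' protocols. The authors' deposited table holds 2 comparisons, anti-Igf2bp2 minus IgG with the Airn and with the scrambled siRNA. Per the file headers, it gives for each of 35556 rows a difference, a p-value and an adjusted p-value. The deposited differences were taken as log2 values from their range; the software, normalization, filters, model and genome build behind them: not given in the sources used here. No array values were used, so the linear model that the design allows for array values was not fitted.

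Recomputed Benjamini-Hochberg values lay within 0.000225 of the deposited adjusted p-values where p was at least 0.001. With 16.14 degrees of freedom the SEs recovered from both comparisons differed by a median of 0.0565% over 22913 rows. For p under 0.001, which has few printed digits, the adjusted p times its rank over the number of rows was used. The mean and the difference of the comparisons were tested against a t distribution, with errors taken as independent and Benjamini-Hochberg adjustment over all rows (Python 3.11.15, SciPy 1.17.1). The recovery was tested on simulated arrays fitted with limma 3.58.1.

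Rows were matched by symbol, and all rows of the genes are named. List genes used the row with the smallest SE, older symbols were matched through RefSeq (GRCm38.p6), and the 2 members with the largest difference per comparison were named, besides counts of 5 or fewer. Members and lists were chosen with earlier results of these data known. Replicates are called biological in the labels.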

Additional observations from a re-analysis of the deposited data

Results flagged for a closer look

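Rows without a symbol whose identifiers lie between those of ND1 and ND6 were no members. Apart from the likeness of row 10598085 to ND6, they were not described above. Of these 13 rows, 3 were called lower in both comparisons of the authors' deposited table. Over all rows, 0.425% were called lower in siAirn cells and 16.8% in siScramble cells. The row 10598085, whose identifier directly precedes that of ND6, stood at -2.366 in siAirn cells and -2.345 in siScramble cells in the authors' deposited table. In the authors' deposited table, row 10598053 stood at -2.516 in siAirn cells and -1.924 in siScramble cells. Row 10598032 stood at -1.926 in siAirn cells and -0.963 in siScramble cells in the authors' deposited table. Their genes are not named in the table and were not inferred. No array values were used, so single samples far from their group could not be sought.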

How the results depend on the processing

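The 3 calls of ND1, ND3 and ND6 in siScramble cells and the call of ND6 in siAirn cells held with the comparisons centred on their medians and with adjustment over rows with a symbol. In siScramble cells, a threshold of 0.01 left 1 call and a minimum difference of 1 left 1 call, ND6 in both cases. In siAirn cells a threshold of 0.1 gave 2 calls, ND6 and the ND4L row. In the mean of both siRNAs, 9 calls became 3 with an assumed correlation of 0.3 and 5 with centring. With centring, only ND1, ND3, the row of ND4L alone and ND6 of those 9 kept their calls. Over rows with 1 symbol the count was 5, but that setting leaves out the 5 heavy-strand rows with several symbols. ND6 minus the median of the heavy-strand rows in siAirn cells became -2.69 over rows with 1 symbol. Centring gave 7 calls in place of 3 for complex III in siScramble cells and 4 in place of 2 for mitochondrial RNA handling in siAirn cells. It raised the calls over all rows in siAirn cells to 1184 from 375, with 80.2% higher against 59.7%, and the higher share in siScramble cells to 68.8% from 54.9%. The causes of these changes were not tested. Among these alternatives no direction reversed for ND1, the row of ND3 alone, ND5, ND6, or the rows of COX2, ND4L, and ATP6 with COX3 and ATP8. The directions of ND2, COX1, CYTB and the row shared by ND3 and COX3 were not followed. In siScramble cells the median of the heavy-strand rows, -0.08 against -0.10 over all rows, does turn above 0 with centring. No paired analysis was possible because the deposited table gives comparisons and no array values, and leaving out replicates was not run for the same reason.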

Other observations

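The 13 rows without a symbol between ND1 and ND6 varied more than the named heavy-strand rows. Their recovered SEs in each comparison were also larger, at 0.33 to 0.64 against 0.15 to 0.25. They ranged from -2.52 to 0.53 in siAirn cells (median -1.48) and from -2.35 to 1.21 in siScramble cells (median 0.05) in the authors' deposited table. All 13 had a lower value in siAirn cells than in siScramble cells, with a median difference of -0.96, where 50.6% of all rows lay below 0. Their SEs of that difference ran from 0.47 to 0.91. None was called in the test from the recovered errors, and 2 had an unadjusted p under 0.05, both on the lower side, against 1.51% of all rows. A named row of the same place, shared by LOC100503984 and LOC100504272, stood at -1.64 in siAirn cells and -0.21 in siScramble cells in the authors' deposited table, without a call in siAirn or siScramble cells.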
